A study of Mus musculus with 40 samples.

Results

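The comparison described here sets the injured hemisphere of a neonatal brain injury model against brains that had met the bacterial product lipopolysaccharide (LPS) only, to show which transcripts injury after LPS added to the early LPS response and which had gone from it. The members are 10 of the 40 arrays of the series: the 5 arrays labelled as injured LPS/HI hemisphere and the 5 labelled LPS. All mice were C57/Bl6 at postnatal day 9. The injured group had vehicle 4 h ahead of LPS, then hypoxia-ischaemia (HI) 14 h after LPS, and the left hemisphere was taken 6 h after HI, which is 20 h after LPS. For the LPS group, the label names LPS alone, removal 6 h later and uninjured brain, not a hemisphere. Injury, hours since LPS, hemisphere or brain, and the vehicle injection therefore differ together between the groups and cannot be told apart from this contrast alone. Beside it stand the right, uninjured hemisphere of the same model (5 arrays, same times), the Vehicle group (5 arrays, vehicle 10 h before removal), and the same contrast in mice given the immunomodulatory peptide IDR-1018 (IDR) 4 h before LPS (5 arrays in each group). Nothing in the labels ties arrays to animals, so the p-values measure the spread between arrays, which may be partly technical.

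LPS is sensed by the Toll-like receptor TLR4 with its co-receptor CD14, and drives NF-kB target genes and, through interferons, a large set of interferon-stimulated genes. Hypoxia-ischaemia in the neonatal rodent is produced by tying 1 carotid artery and lowering inspired oxygen, which damages the hemisphere on the tied side while the opposite hemisphere meets the low oxygen alone. Injured brain tissue is known for heat shock proteins, immediate early transcription factors, chemokines that call in leukocytes, activation of microglia and astrocytes, and loss of neuronal transcripts. The RNA is from bulk tissue, so fewer cells of a type and less RNA per cell cannot be told apart.

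The deposited values are signals on the log2 scale, and each difference below is a difference of log2 signals with its standard error. Array medians of the series lay between 6.99 and 7.13, and the 10 arrays correlated with each other at 0.99 to 0.997 over the genes. The mean level of 28 ribosomal protein genes was 11.05 to 11.43 in injured arrays and 11.09 to 11.39 in LPS arrays. The groups differed in sex-linked transcripts. Of the injured arrays, 3 had Xist, the RNA of the inactive X chromosome, with no Y-linked signal, and replicate 4 had Y-linked signal only. Replicate 3 had both, at 11.23 for Xist and 8.01 for the mean of 3 Y-linked genes. The same-numbered uninjured array had Xist only, with a Y-linked mean of 4.27. The 15 genes highest in the injured hemisphere against LPS are described below. Among them, injured replicate 3 was the lowest injured array for Ccl3, Hspa1a, Atf3, Emp1, Cd14, Gadd45b, Cd180, Hmox1 and Gem. It was not the lowest for Ccl2, Lilrb4a, C3ar1, Prg4, Gjb2 or Ccl6. All 5 LPS arrays had Xist only. Of the Vehicle arrays, 3 had Y-linked signal only and 2 Xist only, so comparisons with Vehicle also differ in sex-linked transcripts. Counts without the arrays with Y-linked signal are given beside the main counts.

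Of 19937 genes, 695 were higher in the injured hemisphere than after LPS (3.49% of those tested) and 387 were lower (1.94%), at a Benjamini-Hochberg adjusted p under 0.05 with limma. The higher genes had the larger differences: 117 of them were over 1.5-fold and 20 over 1 log2 unit, against 26 and 4 of the lower ones. The median difference over all genes was 0.001, and the median 95% half-width was 0.173. Every injured array lay above every LPS array for 897 genes (4.5%) and below for 562 genes (2.82%), whether called or not. Centring each array on its median changed the split to 523 higher and 534 lower. Without injured replicates 3 and 4, the arrays with Y-linked signal, 507 genes were higher and 244 lower, and without replicate 3 alone 768 and 447. The counts fell most when injured replicate 1 (418 higher, 204 lower), injured replicate 2 (439 and 211) or LPS replicate 3 (450 and 189) was left out. Without injured replicate 4, LPS replicate 2, LPS replicate 4 or LPS replicate 5, the lower genes numbered 245, 242, 227 and 250.

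The uninjured hemisphere gives a further pair of comparisons, both of which share arrays with the contrast. The injured hemisphere had 434 genes higher (2.18%) and 162 lower (0.813%) than the uninjured one. With the replicate number as a block these were 1256 and 776. The uninjured hemisphere against LPS had 5 higher (0.0251%) and 22 lower (0.11%). The 5 higher were Myo1f, Ctss, Adgre5, Lgals3bp and Pld4, at 0.44 to 0.81, and the lower ones included Iigp1, Gbp4, Gbp5, Irgm1, Tekt4 and Fkbp5. Of the 15 genes highest in the injured hemisphere against LPS, Prg4 alone was not called between the hemispheres. Of the 15 lowest, Dio2, Neurod6, Hs3st5 and Fgfr3 were called between the hemispheres, at -0.64, -0.73, -0.55 and -0.44. With the replicate block Pla2g3, Zbtb16, Hif3a and P2ry13 were also lower on the injured side (adjusted p = 0.0112, 0.021, 0.0071 and 0.00368).

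Chemokines led the higher genes. Ccl3, which encodes a chemokine that attracts monocytes and other leukocytes, had 10.90, 10.88, 10.45, 11.30 and 11.16 in the injured arrays, against 7.24, 7.08, 7.15, 7.10 and 6.62 in the LPS arrays. The lowest injured array stood more than 3 log2 units above the highest LPS array. The difference was 3.90 ± 0.15 (SE), with an adjusted p of 4.21e-09. Ccl3 averaged 7.11 ± 0.11 in the uninjured hemisphere and 7.35 ± 0.28 in Vehicle brains (SD, n = 5 each), so the LPS group was not above Vehicle. Ccl2, the main monocyte chemoattractant, had 8.09, 8.04, 8.12, 7.80 and 7.97 in injured arrays, against 6.75, 6.46, 6.15, 6.11 and 6.31 in LPS arrays. The groups did not overlap, and the difference was 1.65 ± 0.11 (adjusted p = 2.66e-06). Of 30 cytokines and chemokines measured, 12 were called higher and 0 lower, with a median difference of 0.22. Ccl6 (1.13 ± 0.14) and Ccl9 (1.12 ± 0.09), further CC chemokines of myeloid cells, were among them, as were the interleukin-1 genes Il1a (0.70 ± 0.17) and Il1b (0.63 ± 0.17). In the uninjured hemisphere against LPS the list median was -0.07. None of the 30 was called there, but only 27 of all 19937 genes were. The interferon-induced T cell chemokine Cxcl10 was not called, at 6.82 ± 0.09 in injured arrays and 7.12 ± 0.75 in LPS arrays, while the uninjured hemisphere stood at 5.76 ± 0.26.

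**Figure D1:**
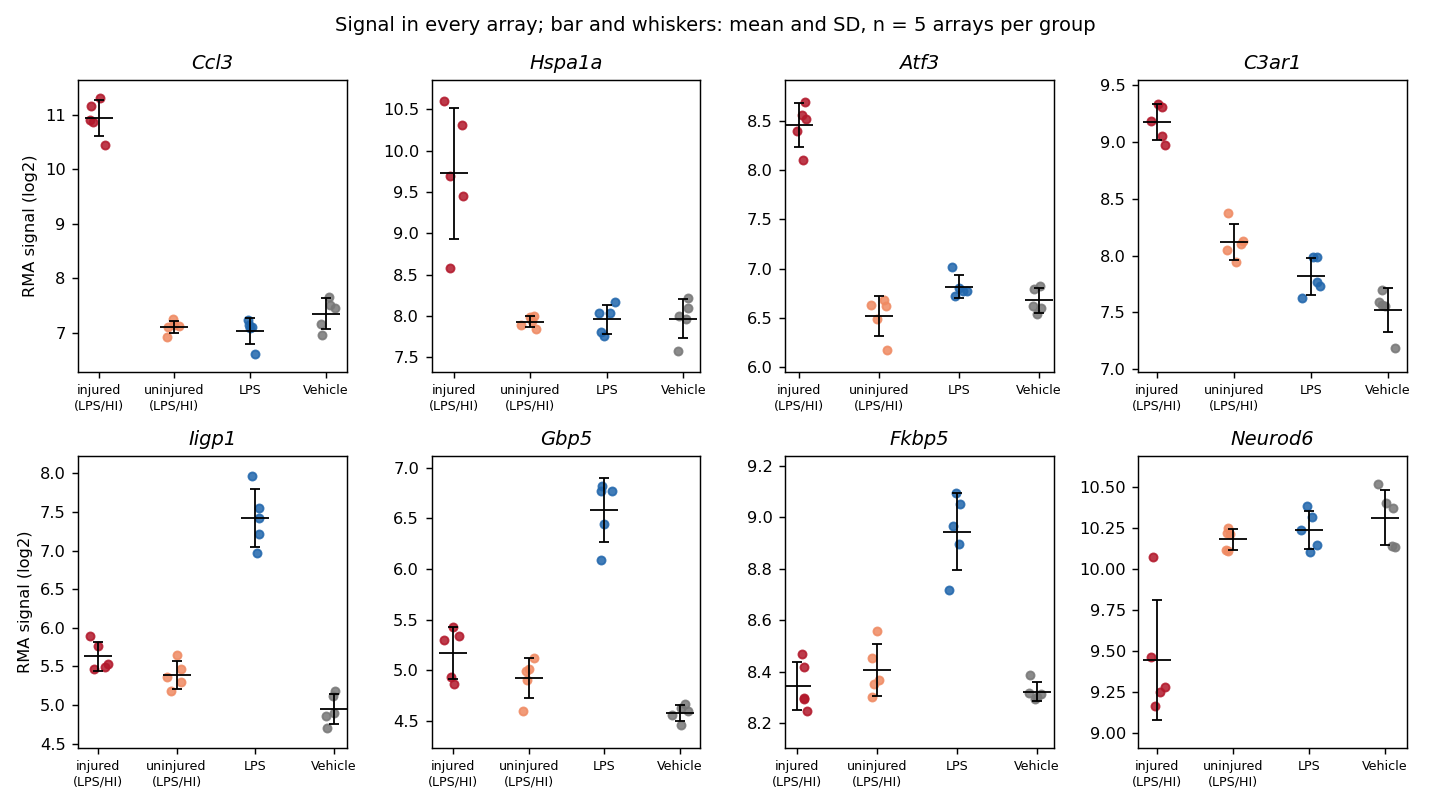
RMA signal (log2) of 8 genes in each array of the injured hemisphere, the uninjured hemisphere, the LPS group and the Vehicle group; points are arrays, the horizontal bar is the mean and the whiskers the SD (n = 5), and the vertical axes do not start at 0. Ccl3, Hspa1a and Atf3 were high in the injured hemisphere alone, while Iigp1, Gbp5 and Fkbp5 were high in the LPS group and lower in both hemispheres.

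Stress genes formed the next block. Hspa1a, the inducible HSP70 chaperone, had 10.61, 9.45, 8.58, 9.70 and 10.31 in the injured arrays, against 7.76, 8.03, 8.03, 8.17 and 7.80 in the LPS arrays. All injured arrays were above all LPS arrays, and the spread was wider in the injured group (SD 0.79) than in the LPS group (SD 0.17). The difference was 1.77 ± 0.28 (adjusted p = 0.00257). The array has a further probe set shared by Hspa1a and its near-identical copy Hspa1b, which was higher by 1.86 ± 0.31, so the share of each copy is uncertain. Of 15 heat shock genes, 6 were called higher and 0 lower (median 0.29), among them the small heat shock proteins Hspb1 (0.94 ± 0.17) and Hspb8 (0.51 ± 0.09) and the HSP70 co-chaperone Bag3 (0.48 ± 0.10, adjusted p = 0.0585 without the arrays with Y-linked signal). In the uninjured hemisphere against LPS the list median was -0.02. None of the 15 was called there, but only 27 of all 19937 genes were.

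Atf3, a stress-induced transcription factor of the ATF family, had 8.52, 8.56, 8.10, 8.69 and 8.40 in injured arrays, against 6.80, 7.02, 6.78, 6.72 and 6.77 in LPS arrays. The gap between the groups was over 1 log2 unit, and the difference was 1.64 ± 0.10 (adjusted p = 1.34e-06). Of 25 immediate early genes, 6 were called higher, including the AP-1 subunits Fos (0.94 ± 0.15), Fosb (0.85 ± 0.16) and Fosl1 (0.54 ± 0.12). Fosl1's groups overlapped, and its call was lost without the arrays with Y-linked signal (adjusted p = 0.0855). Dusp6, a phosphatase that restrains ERK signalling, was the 1 called lower (-0.45 ± 0.08, adjusted p = 0.00559). The integrated stress and unfolded protein list had 8 of 26 genes called higher and 0 lower (median 0.12), with the transcription factor Atf4 at 0.58 ± 0.07, the cystine transporter Slc7a11 at 0.57 ± 0.12 and the glutathione-degrading enzyme Chac1 at 0.50 ± 0.09. Slc7a11 was not called between the hemispheres (0.13), and it averaged 10.29 ± 0.12 in injured, 9.72 ± 0.29 in LPS and 10.28 ± 0.16 in Vehicle arrays. Of 20 genes of p53, Gadd45 and cell death, 6 were called higher and 0 lower. Gadd45b, a stress sensor, led with 1.40 ± 0.15 (adjusted p = 0.000157), and the TWEAK receptor Tnfrsf12a followed with 0.76 ± 0.10.

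Of 28 hypoxia response genes, 3 were called higher and 0 lower, with a median of 0.02. Haem oxygenase Hmox1, which also stands in the NRF2 antioxidant list, was at 1.19 ± 0.10 (adjusted p = 3.33e-05). The oxidoreductase Ero1a (0.33 ± 0.09) and the glucose transporter Slc2a3 (0.26 ± 0.07) passed the threshold here but not under 12 of 21 alternative settings each. The classical HIF targets Vegfa (0.16) and Car9 (-0.01) were not called. Gem, a small GTPase induced by activity and injury, was higher by 1.16 ± 0.14.

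Genes of myeloid cells rose in 2 ways. The first kind was higher in the injured than in the uninjured hemisphere. Lilrb4a, an inhibitory receptor of myeloid cells, had 7.79, 7.94, 7.59, 7.71 and 7.51 in injured arrays, against 6.44, 6.00, 6.03, 6.36 and 5.97 in LPS arrays. The groups did not overlap, and the difference was 1.55 ± 0.11 (adjusted p = 2.71e-06), close in size to that from the uninjured hemisphere (1.60). Cd14 (1.41 ± 0.15) and the receptor Tlr2 (0.59 ± 0.07) belonged here too. The second kind was already at or near the injured level in the uninjured hemisphere. C1qb, a chain of the complement recognition molecule C1q, had 10.81, 10.47, 10.56, 10.55 and 10.72 in injured arrays, against 10.14, 10.16, 10.16, 10.13 and 10.12 in LPS arrays. Every injured array was above every LPS array (0.48 ± 0.07, adjusted p = 0.00145). The uninjured hemisphere averaged 10.54 ± 0.22, and Vehicle brains 9.66 ± 0.17. The lysosomal protease Ctss behaved alike, at 8.94 ± 0.22 in injured, 8.92 ± 0.27 in uninjured and 8.29 ± 0.08 in LPS arrays, and was called in both hemispheres against LPS (0.65 and 0.63).

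Of 13 complement genes, 8 were called higher and 0 lower (median 0.32). The anaphylatoxin receptor C3ar1 led them with 9.19, 9.31, 9.06, 9.34 and 8.98 in injured arrays, against 7.99, 7.73, 7.77, 7.98 and 7.62 in LPS arrays. These groups did not overlap either (1.36 ± 0.09, adjusted p = 2.66e-06). The uninjured hemisphere, at 8.12 ± 0.16, lay between them. The integrin Itgam was at 0.54 ± 0.08 and the C5a receptor C5ar1 at 0.43 ± 0.10. Between the hemispheres 2 of the 13 complement genes were called higher on the injured side (median 0.09). The list median of the uninjured hemisphere against LPS was 0.20. Itgam differed between the hemispheres by 0.17, called only with the replicate block (limma adjusted p = 0.0455). Of 26 phagocytic and lysosomal genes, 14 were called higher and 0 lower (median 0.32), with the scavenger receptors Cd36 (0.88 ± 0.12) and Msr1 (0.88 ± 0.08) and the beta-glucan receptor Clec7a (0.85 ± 0.09) behind Lilrb4a. Between the hemispheres 7 of the 26 were called higher on the injured side (median 0.23). Markers of resting microglia did not follow: of 14, Aif1 was called higher (0.30 ± 0.08, lost under 12 of 21 settings) and P2ry13, a purinergic receptor, lower (-0.64 ± 0.10). Of 14 neutrophil markers only the decoy receptor Il1r2 was called (0.37 ± 0.08). The neutrophil list averaged 5.45 to 5.57 in injured and 5.33 to 5.51 in LPS arrays, and S100a8, S100a9 and Mpo were not called (0.15, 0.11 and 0.07). The monocyte list averaged 6.59 to 6.75 in injured and 6.65 to 6.73 in LPS arrays, with Ms4a7 called higher (0.38 ± 0.07) and Lyve1 lower (-0.49 ± 0.12). The part of these cells in the myeloid genes was not tested.

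Cd180, a TLR4-related receptor, took another course. It had 9.06, 8.80, 8.58, 8.98 and 8.60 in injured arrays, against 7.26, 7.48, 7.71, 7.69 and 7.38 in LPS arrays. The groups did not overlap (1.30 ± 0.11, adjusted p = 2.9e-05), but the LPS mean of 7.50 ± 0.19 was below the Vehicle mean of 8.07 ± 0.14, and the uninjured hemisphere was at 8.11 ± 0.35. The uninjured hemisphere differed from LPS by 0.61, which was not called. The connexin gene Gjb2 (1.21 ± 0.12) also had a lower mean after LPS (8.01 ± 0.22) than in Vehicle (8.34 ± 0.09). That difference from Vehicle was not called (limma adjusted p = 0.237), unlike that of Cd180 (adjusted p = 0.00774). In LPS against Vehicle 20 genes were called lower, and 3 without the arrays with Y-linked signal. The endothelial receptor Tek averaged 8.38 ± 0.22 in injured, 8.49 ± 0.28 in uninjured, 7.69 ± 0.36 in LPS and 8.54 ± 0.13 in Vehicle arrays. Tek was called against LPS (0.70 ± 0.15, adjusted p = 0.0169) and not between the hemispheres (-0.11); the call was lost without injured replicate 1 (adjusted p = 0.0503) and without the arrays with Y-linked signal (adjusted p = 0.0554). Endothelial markers had 3 of 11 genes called higher, and the list averaged 8.48 to 8.70 in injured and 8.05 to 8.52 in LPS arrays. On the injured against the uninjured side 1 of the 11 was called higher (median 0.11). Of 20 genes of the blood-brain barrier and vascular signalling, 4 were called higher, among them the efflux pump Abcb1a (0.50 ± 0.10) and the junction protein Cdh5 (0.45 ± 0.08). The lipid transporter Mfsd2a was the 1 called lower (-0.55 ± 0.06). On the injured against the uninjured side, 0 of the 20 were called higher and 2 lower (median 0). Abcb1a (0.03) and Cdh5 (0.28) were not called there. After LPS against Vehicle, 4 of the 20 were called lower and 0 higher (median -0.19).

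Of 31 reactive astrocyte genes, 16 were called higher and 3 lower (median 0.35). Emp1, a membrane protein, had 9.60, 9.55, 9.15, 9.51 and 9.37 in injured arrays, against 7.75, 7.67, 8.11, 7.79 and 7.54 in LPS arrays. Its groups were separated by about 1 log2 unit, and the difference was 1.66 ± 0.11 (adjusted p = 2.29e-06). The intermediate filament gene Gfap was higher by 0.40 ± 0.08 and the hyaluronan receptor Cd44 by 0.71 ± 0.07. The 3 that fell were Iigp1, Lcn2 and the metalloreductase Steap4 (-0.40 ± 0.08), each of which had stood above Vehicle after LPS. The astrocyte marker list held 1 gene called higher (Gfap) and 1 called lower, the growth factor receptor Fgfr3 (-0.62 ± 0.09). Fgfr3 averaged 9.40 ± 0.13 in injured, 9.85 ± 0.13 in uninjured, 10.02 ± 0.16 in LPS and 9.51 ± 0.14 in Vehicle arrays. Of 17 matrix protease and fibrinolysis genes, 6 were called higher and 0 lower, with the protease inhibitor Timp1 (0.79 ± 0.15), urokinase Plau (0.74 ± 0.12) and thrombomodulin Thbd (0.71 ± 0.13). Of 18 acute phase genes 3 were called higher and 2 lower (median -0.05). Ptx3 (0.63 ± 0.08), Serpina3n (0.62 ± 0.11) and Osmr (0.60 ± 0.10) were the higher ones. Prg4, a lubricating proteoglycan, was higher by 1.28 ± 0.16 and stood at 7.49 ± 0.38 in injured, 7.09 ± 0.37 in uninjured and 6.22 ± 0.25 in LPS arrays. It was not called between the hemispheres (0.40), except with the replicate block (adjusted p = 0.0196).

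**Figure D2:**
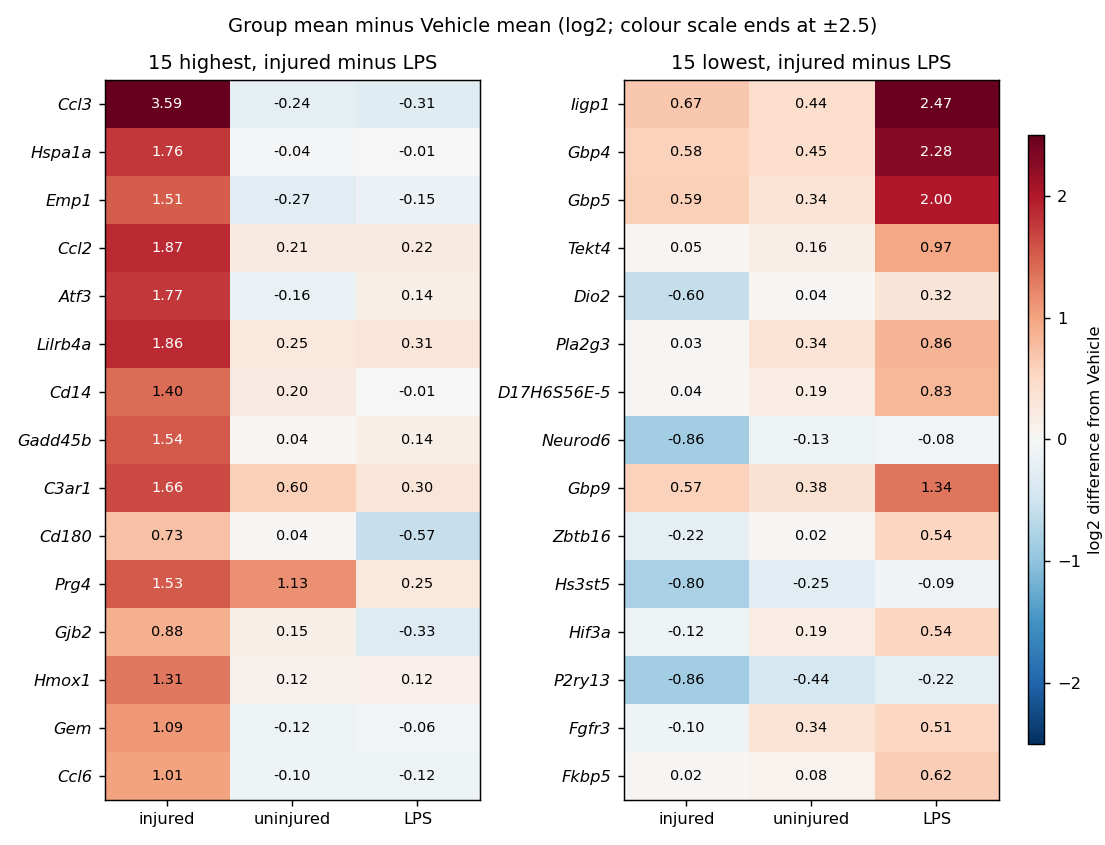
Group mean minus Vehicle mean (log2) of the 15 genes highest and the 15 lowest in the injured hemisphere against LPS, in columns for the injured hemisphere, the uninjured hemisphere and LPS. Most of the left panel is red in the injured column alone; in the right panel the GTPase genes, Tekt4 and Fkbp5 are red in the LPS column, and Neurod6, Hs3st5 and Dio2 are blue in the injured column.

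The largest falls were in interferon-inducible GTPases, which coat and disrupt the compartments of intracellular pathogens. Iigp1, of the immunity-related GTPase family, had 5.89, 5.47, 5.76, 5.49 and 5.53 in injured arrays, against 7.54, 7.96, 6.97, 7.42 and 7.21 in LPS arrays. All injured arrays were below all LPS arrays, with a difference of -1.79 ± 0.15 (adjusted p = 2.41e-05). Gbp5, a guanylate-binding protein, had 5.43, 4.87, 5.33, 4.93 and 5.30 in injured arrays, against 6.77, 6.82, 6.09, 6.77 and 6.44 in LPS arrays. These groups did not overlap (-1.41 ± 0.15, adjusted p = 0.000142). Gbp4 fell by 1.70 on the log2 scale, with 6.61 ± 0.53 in injured and 8.31 ± 0.36 in LPS arrays, and Gbp9 by 0.76. The guanylate-binding genes lie in families of near-identical copies, and signal may be shared between them. Of the 1321 probe sets with several symbols, kept apart from the gene table, 19 were called higher (1.44%) and 8 lower (0.606%), and 6 of the lower ones belong to these GTPase families. The uninjured hemisphere was as low: against LPS it differed by -2.03 for Iigp1, -1.84 for Gbp4, -1.65 for Gbp5 and -0.96 for Gbp9, all called. Between the hemispheres Iigp1 (0.24) and Gbp5 (0.25) were called only with the replicate block, where the injured side was higher (adjusted p = 0.0316 and 0.0338). The injured means stayed above those of Vehicle brains, which were 4.95 ± 0.19 for Iigp1 and 4.58 ± 0.08 for Gbp5.

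Not all interferon genes had fallen. Of 27 measured, 7 were called lower and 1 higher, with a median of -0.11. Besides Iigp1, Gbp4 and Gbp5, the lower ones were Gbp7 (-0.66 ± 0.15), Irgm1 (-0.57 ± 0.13), Oasl2 (-0.38 ± 0.09) and Irf7 (-0.35 ± 0.09). The 1 higher was the antiviral gene Rsad2 (0.50 ± 0.12, adjusted p = 0.0245), at 7.12 ± 0.21 in injured, 6.55 ± 0.22 in uninjured, 6.62 ± 0.24 in LPS and 5.85 ± 0.25 in Vehicle arrays, and with IDR its difference was -0.18 and not called. Ifit3, an antiviral effector, was not called (-0.04), with 8.12 ± 0.22 in injured and 8.15 ± 0.38 in LPS arrays. In the uninjured hemisphere it was at 7.28 ± 0.27, lower than in the injured one (difference 0.83, adjusted p = 0.0037). The antigen-presentation genes of the MHC class I list had 0 of 11 called.

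The promoters of many such genes carry the interferon-stimulated response element. Stretches of 5 are shown, from genes that fell (Irgm1, Gbp5, Gbp7), from Ifit3, which was not called, and from Rsad2, which rose. Only promoters that hold the element were taken, so its presence in all 5 was fixed in advance and says nothing on which genes fell. The sequences are from RefSeq, assembly GRCm38.p6, read 5′ to 3′ on the strand of the gene, and capitals mark GAAA, any 2 bases and GAAA again, on either strand. They lie at chr11:48871393-48871492 on the minus strand (Irgm1), chr3:142496724-142496823 on the plus strand (Gbp5), chr3:142530238-142530337 on the plus strand (Gbp7), chr19:34583345-34583444 on the plus strand (Ifit3) and chr12:26456518-26456617 on the minus strand (Rsad2).
Irgm1: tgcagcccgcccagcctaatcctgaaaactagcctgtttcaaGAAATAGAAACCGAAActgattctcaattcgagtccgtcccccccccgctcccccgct
Gbp5: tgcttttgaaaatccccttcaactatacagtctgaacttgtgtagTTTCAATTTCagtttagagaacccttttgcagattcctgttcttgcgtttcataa
Gbp7: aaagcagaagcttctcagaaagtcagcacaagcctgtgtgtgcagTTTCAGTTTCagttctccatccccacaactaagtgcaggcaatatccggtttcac
Ifit3: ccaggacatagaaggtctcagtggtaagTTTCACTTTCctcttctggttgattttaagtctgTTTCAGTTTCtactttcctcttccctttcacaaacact
Rsad2: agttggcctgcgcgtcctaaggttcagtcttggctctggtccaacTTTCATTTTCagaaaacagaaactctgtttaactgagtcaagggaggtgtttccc

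In Irgm1 the capitals hold 2 overlapping matches. Of the 27 measured interferon genes, 20 had a promoter in the table, and 13 of those (65.0%) held these letters in the table's window around the start, against 4.0% of all 27025 genes with a promoter. Among the 5 genes of the list that were called lower and had a promoter, 3 held them, and those are the 3 shown. The gamma-activated site, searched as TTCNNNGAA on both strands, was in the promoters of Gbp5 and Gbp7 and not in those of Irgm1, Ifit3 and Rsad2 shown here, and 9.6% of all promoters held it. A match describes the letters and is not evidence of binding.

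Other genes that were high 6 h after LPS were low in both hemispheres. Fkbp5, a co-chaperone of steroid receptors that glucocorticoids induce, had 8.25, 8.42, 8.47, 8.30 and 8.30 in injured arrays, against 8.96, 9.05, 8.89, 8.72 and 9.10 in LPS arrays. The groups did not overlap (-0.60 ± 0.08, adjusted p = 0.000873). The uninjured hemisphere was at 8.41 ± 0.10 and Vehicle brains at 8.32 ± 0.04. Of 18 glucocorticoid response genes, 4 were called lower and 0 higher (median -0.10). They were Fkbp5, the transcription factor Zbtb16 (-0.76 ± 0.09), the kinase Map3k6 (-0.28 ± 0.07) and Lcn2, and neither Tsc22d3 (-0.17) nor Sgk1 (0.00) was called. Tekt4, a tektin of cilia, was at 6.68 ± 0.23 in injured and 7.60 ± 0.17 in LPS arrays (-0.92 ± 0.11), and the secreted phospholipase Pla2g3 at 7.92 ± 0.15 and 8.75 ± 0.12 (-0.83 ± 0.08). Both stood near Vehicle in the injured hemisphere.

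Lcn2, the iron-siderophore-binding lipocalin of the acute phase, had 8.73, 8.19, 9.33, 8.28 and 9.18 in injured arrays, against 10.17, 10.03, 9.04, 9.23 and 10.36 in LPS arrays, and Vehicle brains were at 5.87 ± 0.20. The groups overlapped, and every injured array stood far above the Vehicle mean. The difference of -1.02 ± 0.27 had an adjusted p of 0.0407, and the call was lost under 9 of 21 settings, where the adjusted p reached 0.11. Those settings include leaving out injured replicate 1, 2 or 4, or LPS replicate 1, 2 or 5.

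**Figure D3:**
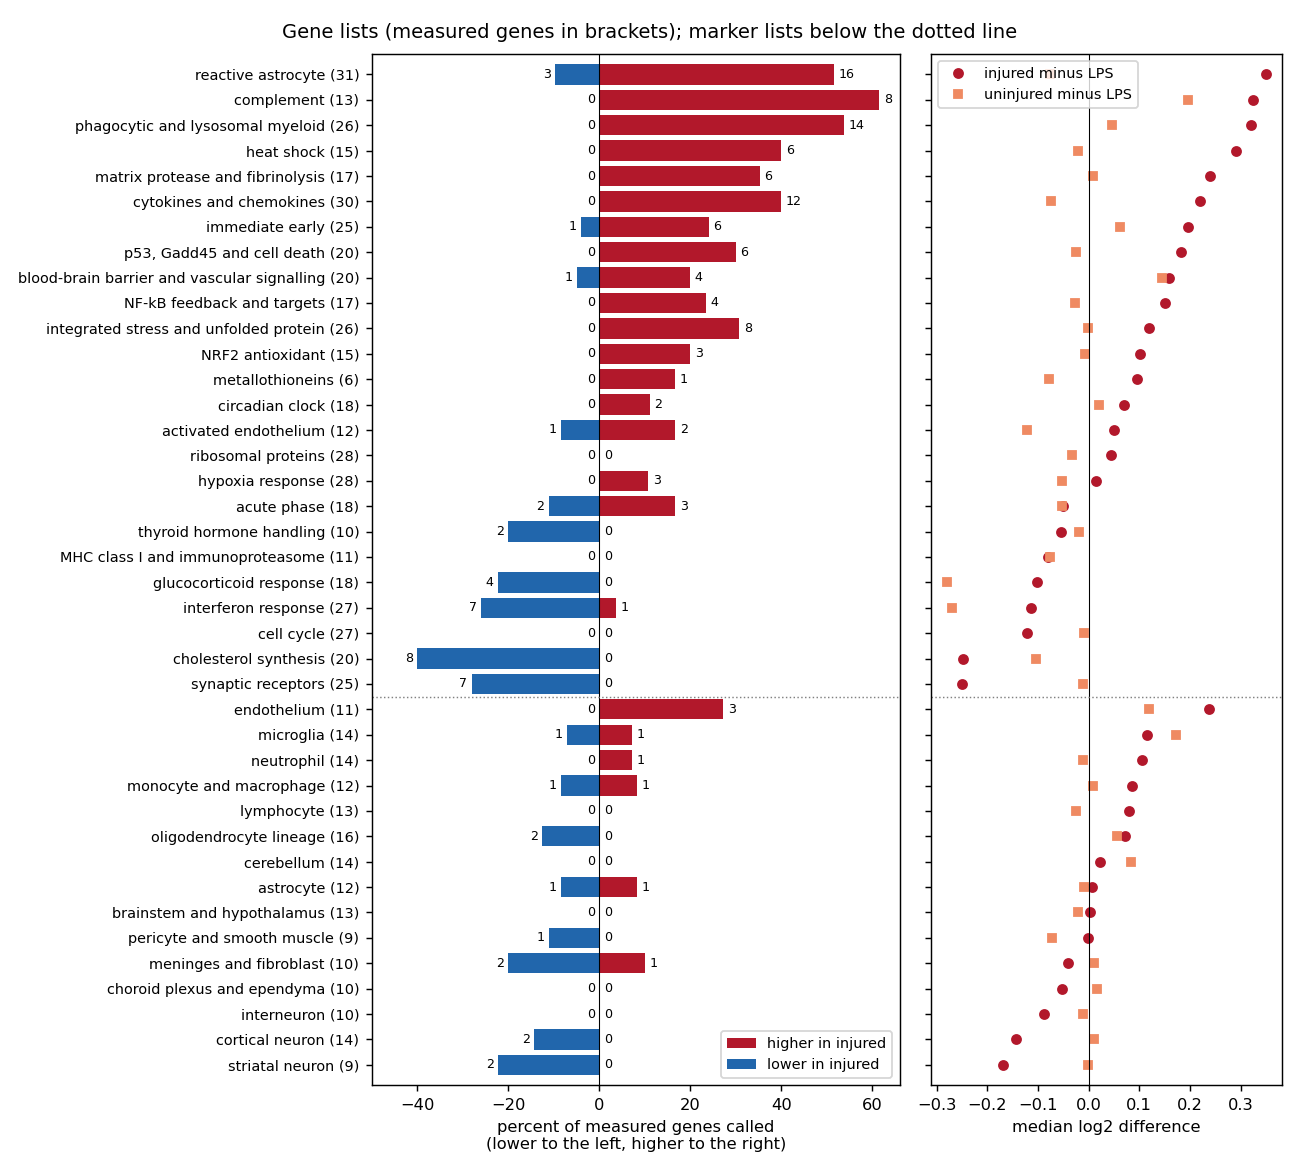
Left, the percent of measured genes of each list that were called higher (right of 0) or lower (left of 0) in the injured hemisphere against LPS, with the number called at the end of each bar. Right, the median difference from LPS (log2) of each list in the injured hemisphere (circles) and the uninjured hemisphere (squares); the reactive astrocyte, complement and myeloid lists lie at 0.32 to 0.35 in the injured hemisphere, and the synaptic receptor and cholesterol lists at -0.25.

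Some genes of neurons were lower in the injured hemisphere. Neurod6, a transcription factor of cortical projection neurons, had 9.17, 9.25, 10.07, 9.46 and 9.28 in injured arrays, against 10.10, 10.15, 10.24, 10.38 and 10.31 in LPS arrays. Replicate 3 of the injured group lay just below the lowest LPS array, and the other 4 lay lower still. The difference was -0.79 ± 0.14 (adjusted p = 0.00496), with the uninjured hemisphere at 10.18 ± 0.06. The heparan sulfate sulfotransferase Hs3st5 was at 7.99 ± 0.10 in injured and 8.70 ± 0.21 in LPS arrays (-0.71 ± 0.09). Of 25 synaptic receptor genes, 7 were called lower and 0 higher (median -0.25), led by the serotonin receptor Htr2a (-0.55 ± 0.07), the glutamate receptors Grm2 (-0.45 ± 0.07) and Grin3a (-0.36 ± 0.07), and Grm8 (-0.35 ± 0.07, adjusted p = 0.0575 without the arrays with Y-linked signal). Against LPS the uninjured hemisphere had a list median of -0.01 and 0 called, where only 27 of all 19937 genes were called. Of the 25, 3 were called lower in the injured than in the uninjured hemisphere (median -0.23). The cortical neuron markers averaged 10.49 to 10.62 in injured and 10.68 to 10.78 in LPS arrays, with Neurod6 and Fezf2 (-0.37 ± 0.07) called of 14. The striatal markers averaged 9.70 to 9.77 in injured and 9.90 to 10.05 in LPS arrays, with Gpr6 (-0.44 ± 0.08) and Pde10a (-0.28 ± 0.06) called of 9. Between the hemispheres 2 of the cortical and 1 of the striatal markers were called lower in the injured one, and 0 of the interneuron markers. Of 10 interneuron, 14 cerebellum and 13 brainstem and hypothalamus markers, 0 were called, and the cerebellum list averaged 7.46 to 8.06 in injured and 7.46 to 7.70 in LPS arrays. The part of the mix of regions in the neuronal genes was not tested.

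Some transcripts of cholesterol synthesis were lower as well. Of 20 genes, 8 were called lower and 0 higher (median -0.25). Against LPS the uninjured hemisphere had a median of -0.10 and 0 called, where only 27 of all 19937 genes were called. Between the hemispheres 2 of the 20 were called lower on the injured side (median -0.16). In the same contrast with IDR, 5 of the 20 were called lower and 0 higher (median -0.09). Mvd, which makes isopentenyl diphosphate, had 8.17, 8.35, 8.46, 8.22 and 8.80 in injured arrays, against 9.05, 8.91, 8.87, 8.97 and 8.93 in LPS arrays. The groups did not overlap (-0.55 ± 0.10, adjusted p = 0.00662). The sterol enzymes Nsdhl (-0.47 ± 0.08) and Tm7sf2 (-0.47 ± 0.08) fell alike. Dio2, the deiodinase by which astrocytes make active thyroid hormone, had 8.33, 8.60, 8.64, 8.95 and 8.69 in injured arrays, against 9.39, 9.55, 9.68, 9.63 and 9.56 in LPS arrays. Again no injured array reached the lowest LPS array (-0.92 ± 0.10, adjusted p = 0.000162). The uninjured hemisphere stayed at 9.28 ± 0.17. Crym, a thyroid hormone-binding protein, was the other of 10 thyroid genes called (-0.32 ± 0.06). Pdgfra (-0.38 ± 0.07) and Cspg4 (-0.40 ± 0.08) were the 2 of 16 oligodendrocyte lineage markers called, both lower. The list as a whole had not fallen, with a median of 0.07. It averaged 8.99 to 9.40 in injured and 8.96 to 9.33 in LPS arrays. Of 27 cell cycle genes 0 were called (median -0.12), as were 0 of 28 ribosomal protein genes (median 0.05). In the same contrast with IDR, 11 of the 27 cell cycle genes were called lower (median -0.22), where 3.52% of all genes were called lower. Of 17 NF-kB targets 4 were called higher (median 0.15), and of 6 metallothionein genes 1 was higher (median 0.095). Among 12 activated endothelium genes 2 were higher and 1 lower (median 0.05). Among 13 lymphocyte and 10 choroid plexus markers 0 were called (medians 0.08 and -0.05). The shares called over all 19937 genes were 3.49% higher and 1.94% lower, and lists this small give few calls to judge by. Of 10 meningeal markers 1 was higher and 2 lower, and of 9 pericyte markers 1 was lower. Pdgfra, named above, is 1 of the 2 lower meningeal markers, and Cspg4 is the lower pericyte marker. Neither fall can therefore be assigned to 1 cell type. Of 18 circadian clock genes, Nr1d1 (0.48 ± 0.10) and Cry1 (0.43 ± 0.06) were called higher, and the time of day is not in the labels.

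The IDR arms share no array with the contrast and gave gene sets to read in it. Of 358 genes higher in the injured than in the uninjured hemisphere with IDR, 253 were called higher than LPS here (70.7%) and 2 lower, Irgm1 and Lcn2, with a median of 0.39. Of 140 genes lower with injury there, 83 were called lower here (59.3%) and 0 higher, with a median of -0.29. The 232 genes higher with LPS and IDR than with IDR alone were split: 30 were higher here (12.9%) and 43 lower (18.5%), with a median of -0.04. Their median difference from LPS was -0.14 in the uninjured hemisphere, and in the injured one they stood 0.39 above Vehicle. The 34 genes in both the LPS and the injury set, such as C3ar1, Msr1, Il1a and Csf1, had a median of 0.40 here, and the 198 in the LPS set alone -0.08. The 62 genes lower with LPS there had 14 called higher here (22.6%) and 1 lower (1.61%). Over all 19937 genes the shares called here were 3.49% higher and 1.94% lower.

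**Figure D4:**
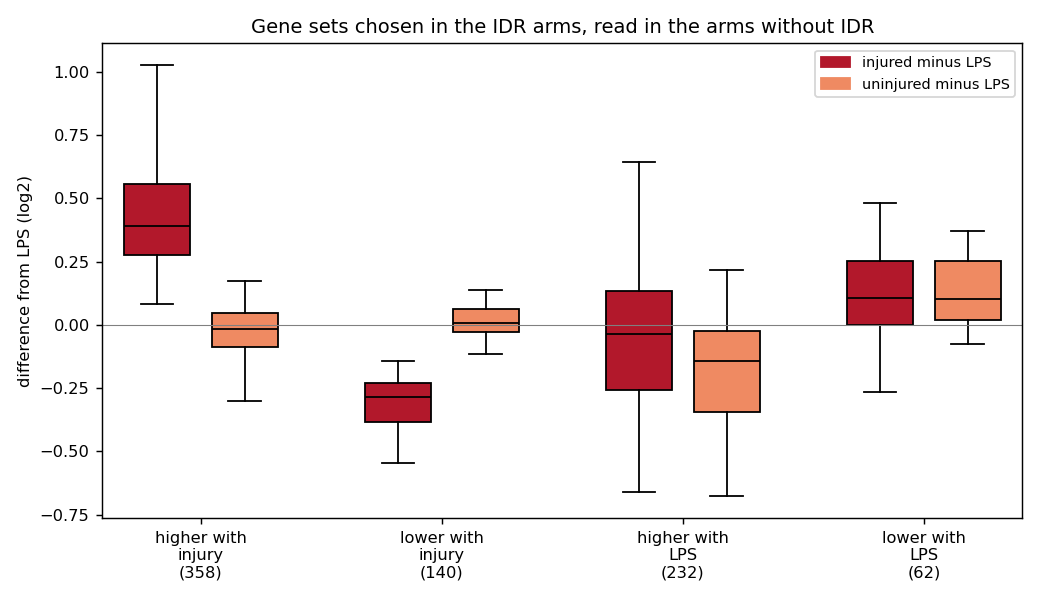
Difference from LPS (log2) in the injured hemisphere (dark boxes) and the uninjured hemisphere (light boxes) of the arms without IDR, for gene sets chosen in the arms with IDR, with the number of genes in brackets; boxes span the quartiles, the line is the median and whiskers run from the 5th to the 95th percentile of genes. Genes higher with injury have a median of 0.39 in the injured and -0.02 in the uninjured hemisphere, and genes higher with LPS a median of -0.04 and -0.14.

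The same contrast with the peptide, injured LPS/HI with IDR against LPS with IDR, called 935 genes higher (4.69%) and 702 lower (3.52%), or 562 and 1204 after centring each array on its median. Of the 695 genes higher without the peptide, 429 were higher with it (61.7% of those 695 and 45.9% of the 935), and 691 had the same sign. Of the 387 lower ones, 219 were lower with it (56.6%, and 31.2% of the 702), and 380 had the same sign. None was called in the opposite direction. With the peptide Ccl3 was at 3.91, Hspa1a at 2.05, Atf3 at 1.92 and Iigp1 at -1.96. No gene passed the threshold for the difference of the contrasts in limma, where 715 had an unadjusted p under 0.05 and the smallest adjusted p was 0.96. The median 95% half-width of that difference was 0.238. The genes with the smallest p were Serpinb3c (difference 0.39), Eef2k (-0.57), Zfp330 (-0.46), S100a3 (0.35) and Gpr1 (0.34). Serpina3n and Osmr, called without the peptide, were at 0.06 and 0.07 with it, and for neither was the difference called (-0.56 and -0.53).

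**Figure D5:**
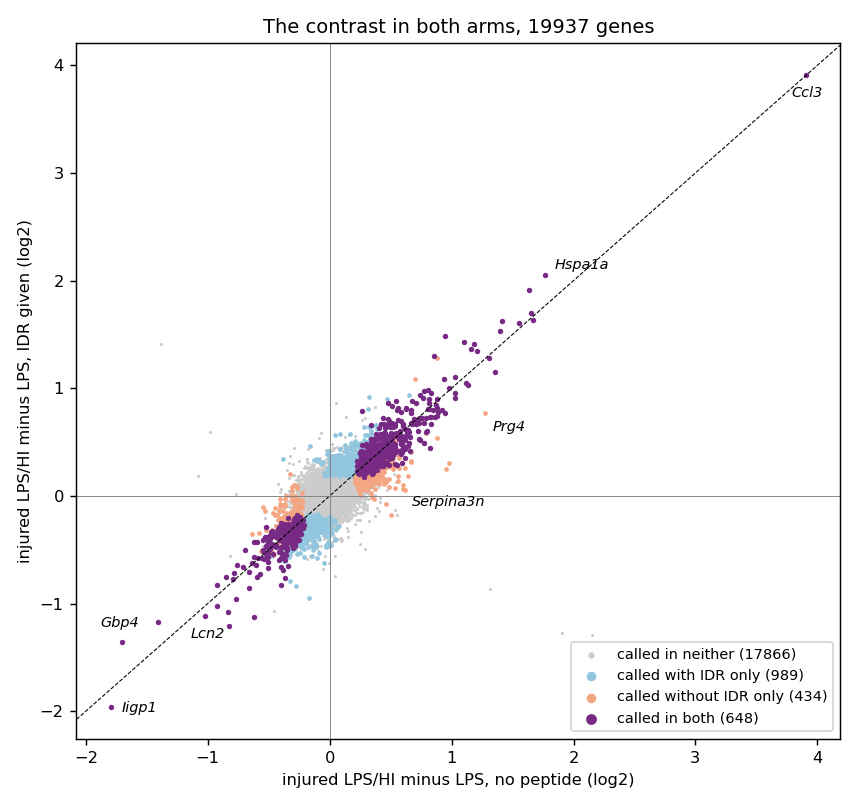
Injured LPS/HI minus LPS (log2) for each of 19937 genes without the peptide (horizontal axis) and with IDR (vertical axis); colours give the arms in which a gene was called, and the dashed line marks equal differences. Genes called in both arms lie along the line from Iigp1 to Ccl3; the grey points far from it are Xist, 3 Y-linked genes and the pituitary hormone genes Gh and Cga.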

How the data were processed

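RNA of 40 brain samples in 8 groups of 5 was measured on Affymetrix arrays. The deposited values are log2 signals that the authors made by RMA with the affy package, per the submitters' processing notes; versions are not given in the sources used here. Of 34760 probe sets, 21640 had 1 gene symbol, 1321 several and 11799 none. A gene was read from its brightest probe set by mean over the 40 arrays, which mattered for 954 of 19937 genes. RMA compresses differences of dim probe sets, and the number of arrays limits the precision.

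Groups came from the labels. Each comparison used limma 3.58.1 (R 4.3.3) on the arrays of the groups compared, with no covariate, and Benjamini-Hochberg adjustment over 19937 genes at 0.05. Errors of differences are standard errors and errors of levels are SDs. The fits were tested on simulated data with 200 changed genes of 19937 and independent normal noise of each gene's measured spread. For injured against LPS, 38.8%, 82.1% and 97% of changes of 0.3, 0.5 and 1 on the log2 scale were called, with 8 false calls. The real data had 1082 called genes and may have noise shared between genes, so these rates may differ there. Figures used Python 3.11.15, numpy 2.4.6, pandas 2.3.3 and matplotlib 3.10.9.

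The members and the 25 gene and 15 marker lists were chosen with earlier results of these data known, and 59 of 693 listed symbols were not matched. Named genes are the 15 called genes highest and lowest in the contrast whose groups do not overlap, passing over clone names, Xist and Y-linked genes; up to 4 called members of each list by size of difference (2 by p where none is called); and the 5 smallest p for the difference of the contrasts. Other genes named, such as Irgm1, Gbp7, Oasl2, Irf7, Rsad2, Ifit3, Cxcl10, Vegfa, Car9, Tsc22d3, Sgk1, S100a8, S100a9, Mpo, Gh and Cga, were chosen after their values were seen, and so were the promoters shown. Same-numbered injured and uninjured arrays deviated together (r = 0.392 to 0.646, each best with its own number in 5 of 5), so their blocked values stand beside results whose call changes. Injured and LPS numbers did not pair (r = -0.421 to 0.411, 0 of 5 best with their own number). For the hemispheres with IDR, pairing was less clear. All 5 same-numbered pairs correlated positively (r = 0.088 to 0.589), and 3 of 5 were best with their own number. Same-numbered arrays there also matched in having Xist or Y-linked signal. Alternatives covered normalization, centring, low signal, array weights, covariates, blocks and left-out arrays.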

Additional observations from a re-analysis of the deposited data

Results flagged for a closer look

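In 8 of 236 groups of 5 arrays examined for the named genes (3.4%), 1 array stood apart from the others by Dixon's criterion, which chance meets in about 1 group in 20. Among injured arrays, Slc2a3 was 10.99 in replicate 3 with the others at 11.12 to 11.15, and Htr2a was 9.02 in the same array with the others at 9.20 to 9.26. Tnfrsf12a was 8.38 in injured replicate 1 with the others at 7.90 to 8.04, and Grin3a was 9.98 in injured replicate 5 with the others at 10.17 to 10.24. Among LPS arrays, Ccl3 was 6.62 in replicate 5 with the others at 7.08 to 7.24, Atf3 was 7.02 in replicate 2 with the others at 6.72 to 6.80, Clec7a was 5.30 in replicate 4 with the others at 5.44 to 5.49, and Lyve1 was 7.43 in replicate 1 with the others at 7.78 to 7.90.

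For Serpinb3c, each of the 5 injured arrays with IDR was above the mean of LPS with IDR, where the groups overlapped and the difference of 0.10 was not called, and each of the 5 without IDR was below the LPS mean (-0.29). The difference of the contrasts was 0.39, which was not called (limma adjusted p = 0.96). Probe sets with several symbols were outside the gene table, and in injured against LPS 19 of these 1321 were called higher (1.44%) and 8 lower (0.606%).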

How the results depend on the processing

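No count in injured against LPS changed the sign of a gene: in each alternative, 0 of the 695 higher and 0 of the 387 lower genes turned. Of 100 named genes that were called, 78 kept the call in every setting run for them. With the arrays of all 8 groups in 1 fit, injured against LPS had 1151 higher and 712 lower, uninjured against LPS 26 and 43, injured against uninjured 946 and 485, LPS against Vehicle 46 lower, and injured with IDR against uninjured with IDR 893 and 539. With array weights these were 1087 and 759, 18 and 43, 918 and 529, 36 lower, and 597 and 257; injured against Vehicle had 1500 and 1710, and LPS with IDR against IDR 106 lower. With the ribosomal protein level as covariate they were 1144 and 772 for injured against LPS, 16 and 39 for uninjured against LPS, 926 and 519 for injured against uninjured, and 1191 and 751 with IDR. With the Xist level as covariate, injured against LPS had 241 lower, with IDR 1202 lower, uninjured against LPS 1 and 12, injured against Vehicle 546 and 371, LPS against Vehicle 83 and 3, and injured against uninjured with IDR 693 and 390. Without arrays with Y-linked signal, injured against LPS had 244 lower, with IDR 174 and 83, uninjured against LPS 2 and 13, injured against uninjured 140 and 26, injured against Vehicle 212 and 65, and LPS against Vehicle 72 and 3; these fits use fewer arrays, and for LPS with IDR against IDR the setting was not run. Median centring gave 562 higher and 1204 lower for injured against LPS with IDR, and 225 lower for injured against uninjured with IDR. With the replicate block, injured against LPS had 527 higher and 249 lower, of which 499 and 226 were also called without it. The same contrast with IDR had 484 and 317, and uninjured against LPS had 2 higher. The numbers did not pair the arrays of these comparisons by the correlation of their deviations. Injured against uninjured with IDR had 593 and 301, and pairing there was partial (r = 0.088 to 0.589, 3 of 5 best with their own number). The numbers did pair injured with uninjured arrays without IDR, where the block gave 1256 and 776. Injured and Vehicle arrays, from differently treated mice, deviated together more weakly (r = 0.116 to 0.443, 3 of 5 best with their own number). The block gave 1168 lower there. The cause of these shifts was not tested. The difference of the contrasts gave 0 genes in every setting.

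Leaving out 1 array in turn gave 418 to 768 higher and 189 to 447 lower for injured against LPS, 565 to 885 and 355 to 690 with IDR, 2 to 7 and 13 to 23 for uninjured against LPS, and 215 to 465 and 62 to 182 for injured against uninjured. It gave 565 to 930 and 399 to 926 for injured against Vehicle, 123 to 148 and 12 to 27 for LPS against Vehicle, 168 to 219 and 24 to 67 for LPS with IDR against IDR, and 185 to 393 and 45 to 122 for injured against uninjured with IDR. Without the arrays with Y-linked signal, Fosl1, Bag3, Grm8 and Tek lost their calls (adjusted p = 0.0855, 0.0585, 0.0575 and 0.0554). Calls lost by leaving out an array included C5ar1 (injured replicate 2, 3 or 4, or LPS replicate 2), Lyve1 (injured 1 or 2, LPS 2, 3 or 5), Pde10a (injured 2, LPS 2, 3 or 5), Il1r2 (injured 2 or 4) and Map3k6 (injured 1, 2, 3 or 4, LPS 1, 2 or 5). Ero1a lost its call without injured 1, 2 or 4 or LPS 1, 2, 3 or 5, Slc2a3 without any array but injured 3 and LPS 1, and Aif1 without any but injured 5, LPS 1 and LPS 5. The median 95% half-width of 0.173 limits what could be called, and dim probe sets carry less information.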

Other observations

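Probe sets that several gene symbols share held further members of the interferon-inducible GTPase families, and no single member can be named from them. In the injured hemisphere against LPS, the T cell-specific GTPase pair Tgtp1 and Tgtp2 was lower in both of its probe sets (-1.62 ± 0.24 and -1.57 ± 0.23). The probe set of Irgm2 and Igtp was lower by -1.22 ± 0.14, that of Gbp4, Gbp6, Gbp8, Gbp9, Gbp10 and Gbp11 by -1.09 ± 0.17, that of Ifi47 and Olfr56 by -1.04 ± 0.12, and that of Gbp2 and Gbp2b by -0.97 ± 0.21 (limma, adjusted p = 0.000888 to 0.0327 over the 1321 such probe sets). Among the higher ones were the anti-apoptotic Bcl2a1 family (0.66 ± 0.08) and the Evi2 genes (0.68 ± 0.07).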
